A study of Zea mays with 2 samples.

Results

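Mitochondrial carriers and voltage-dependent anion channels are the transport proteins through which metabolites enter and leave the mitochondrion. Their genes were taken from the descriptions in the wild-type file by words for mitochondrial carriers and transporters, ADP/ATP carriers, dicarboxylate transport, uncoupling proteins, voltage-dependent anion channels and outer membrane porins. The rule also names the anion channel gene vdac2 (GRMZM2G115049) by identifier, although its description matches these words. By identifier it leaves out brittle1 (GRMZM2G144081), a carrier of the plastid envelope. The description of brittle1, Uncharacterized protein, does not match these words, so this exclusion removed no match. It gave 17 of the 41406 genes in the files, and each of the 17 matches reached the required level of 1 in a file. The member nearest to that limit was a C4-dicarboxylate/malic acid transport protein gene (GRMZM2G061469), at 0.334 in the wild type and 1.11 in the mutant library, and no match lay below it. Apart from these identifiers the rule reads only the words of a description, which 48.7% of the genes in the files lack. Some genes of these families lie outside it, as named below.

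Messenger RNA was sequenced from kernel endosperm of maize (Zea mays), the starch- and protein-storing tissue of the grain, at 12 days after pollination. One library has the genotype entry dek40 (a defective kernel mutant) and 1 has the genotype entry wild type. The title and design text of the series name dek41 instead of dek40, so the mutant is written as the library labelled dek40, or dek40 for short. The sources used here do not give the kind of allele, the genetic background or the number of kernels pooled. Each genotype has 1 library, so no replicate spread exists and no test was made, and every difference below is between these libraries.

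Levels are given as deposited, in FPKM for the wild type and RPKM for dek40, both per length of gene and per mapped fragments or reads. As deposited, the median gene was 1.34-fold higher in dek40, a shift of 0.42 on the log2 scale, so the dek40 values were multiplied by 0.747 before ratios were taken. Before the log2 ratio was taken, a pseudocount of 1 was added to the scaled dek40 value and to the wild-type value, which shrinks the differences of low genes. Higher and lower are used as calls for ratios of at least 2-fold, a log2 ratio of 1 or more or of -1 or less, in genes whose level reached 1 in a library after scaling. That level was reached by 28178 genes and by 16 of the 17 members. The library totals implied by the values were 15669149 for the wild type and 14218436 for dek40, up to a common factor, and the reads quoted below are the fewest whole reads that give a gene's ratio. Intervals are exact Clopper-Pearson 95% intervals of the ratio without a pseudocount, computed on those fewest reads. They cover counting error only.

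Zeins, the storage proteins that define this tissue, were present in both libraries, but each of the 22 zein-named genes was lower in dek40. They made up 16.1% of the summed wild-type values and 2.49% of the summed dek40 values. The 7 markers of the basal transfer layer had a summed level of 1487 FPKM against 337 RPKM for dek40, and 6 of the 7 were lower. Among 8 embryo markers, summing to 744 FPKM and 531 RPKM, 3 were lower and 0 higher. One of the lower genes, GRMZM2G410152, rested on as few as 4 and 1 reads, with an interval of -7.90 to 1.06. The Globulin-1 gene GRMZM2G067919 went the other way, with a log2 ratio of 0.31 (0.18 to 0.45). The aleurone gene AL-9 (GRMZM2G091054) was higher, at 2607 FPKM and 7778 RPKM. Photosynthesis genes, marking green maternal tissue, summed to 42.3 FPKM and 29.7 RPKM over 20 genes, with 3 lower and 1 higher among the 11 that reached the level of 1. Beside these marker counts, 6.33% of all genes compared were higher and 4.99% lower. The files list no gene at 0, so a value above 0 does not show that a cell type was present. The part of cell composition in the carrier ratios was not tested, and in whole endosperm fewer cells of a type cannot be told apart from less RNA per cell.

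Mitochondria are enclosed by an outer and an inner membrane. Voltage-dependent anion channels, also called porins, are barrel-shaped pores through which ADP, ATP, phosphate and organic acids cross the outer membrane. The inner membrane is tight, and each solute crosses it on a carrier, usually in exchange for another. The ADP/ATP carrier brings ADP in and lets ATP out, the phosphate carrier supplies phosphate for ATP synthesis, and dicarboxylate carriers link the citric acid cycle to the cytosol. Uncoupling proteins belong to the same carrier family, and so does brittle1, which feeds ADP-glucose to starch synthesis in the plastids of maize endosperm.

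The 3 highest ratios of dek40 over wild type among the members belonged to anion channels, and vdac2 stood far above the rest. Of the 16 members that could be called, 2 were higher in dek40, and both were anion channels: vdac2 and the porin gene GRMZM2G055025. Over all genes compared, 6.33% were called higher. None of the members was lower, where 4.99% of all genes were, and the 12 carriers that could be called all stayed within 2-fold. A count of 2 in 16 is too small to be set apart from that background. The median log2 ratio of the 16 members was 0.59 (95% binomial interval over members, 0.19 to 0.80), beside 0.02 over all genes compared. Such intervals of medians, here and below, describe the spread among genes of the same libraries. Genes are not replicates, so these intervals are no test against all genes. In 13 of the 16 members the ratio was above 0, against 51.9% of all genes. In 11 the counting interval lay wholly above 0, against 22.3% of all genes, and in 2 wholly below, against 18.6%. Whether an interval clears 0 depends on read number, and all genes were not matched to the members in level.

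**Figure D1:**
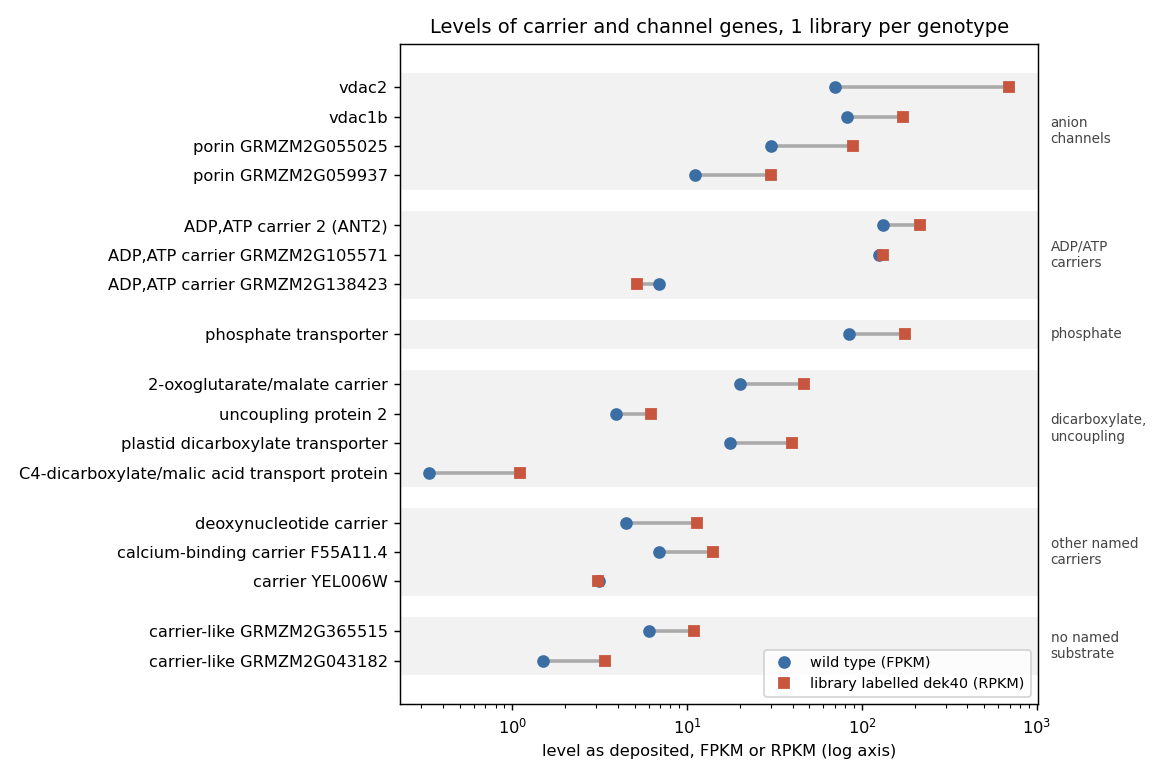
Levels of the 17 carrier and channel genes as deposited, in FPKM for the wild type (circles) and RPKM for the library labelled dek40 (squares), on a log axis and grouped by role. The vdac2 line is the longest, from 69.7 to 691, while the ADP,ATP carrier GRMZM2G105571 and the carrier YEL006W have nearly overlapping points; 1 library per genotype, so there are no error bars.

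The gene vdac2 (GRMZM2G115049) encodes voltage-dependent anion channel protein 2. It stood at 69.7 FPKM (wild type) and 691 RPKM (dek40), on at least 906 and 8141 reads. The log2 ratio was 2.87 (2.79 to 2.99). Without the pseudocount the difference was 7.40-fold after scaling and 9.90-fold as deposited. In the wild type, vdac2 was the fifth most abundant of the 17 genes, below both abundant ADP/ATP carriers, the phosphate transporter and vdac1b. In dek40 it was the most abundant, at 3.24 times the level of the next, the ADP,ATP carrier 2 gene. Its rank by level among the 28178 genes compared went from 2070 in the wild type to 216 in dek40. By ratio it ranked 51. Of 2933 other genes within 2-fold of its wild-type level, 1 had a ratio as high, a gene described as a phenazine biosynthesis protein (GRMZM2G050325, log2 ratio 3.13), which is named here after its value was seen.

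The other 3 anion channels were also above the median gene. The porin gene GRMZM2G055025 was at 30.1 FPKM and 89.0 RPKM, with a log2 ratio of 1.12 (0.76 to 1.54), and was the member just inside the 2-fold rule. The porin gene GRMZM2G059937 was at 11.1 FPKM and 30.1 RPKM, and at 0.96 (0.74 to 1.31) it was the member just outside it. The gene vdac1b (GRMZM2G146670), the most abundant anion channel member in the wild type, was at 82.1 FPKM and 171 RPKM, with a log2 ratio of 0.63 (0.53 to 0.75). With the values as deposited all 4 anion channels passed 2-fold, vdac1b at 1.05. By that rule 8 of the 17 members were higher and 0 lower, where 14.7% of all genes were higher and 2.65% lower.

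**Figure D2:**
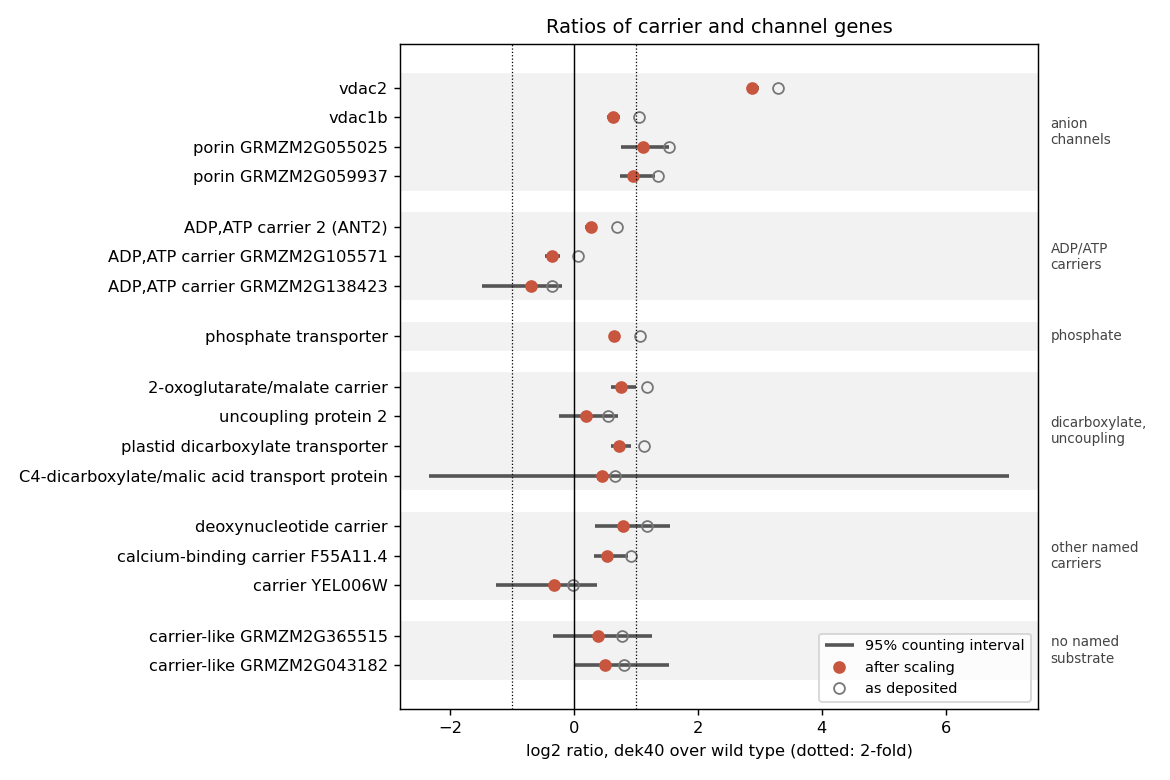
Log2 ratios, dek40 over wild type, of the 17 genes after scaling (filled points) and as deposited (open points), with 95% counting intervals around the scaled ratio and dotted lines at 2-fold. After scaling vdac2 lies at 2.87, GRMZM2G055025 at 1.12, and the others between -0.70 and 0.96.

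Because the scaling moves all genes alike, differences between members do not depend on it. Relative to vdac1b, vdac2 was higher in dek40 by 4.75-fold, a difference of 2.25 between their log2 ratios without a pseudocount (Wald 95% interval on the reads, 2.10 to 2.39, counting error only). The level of vdac2 was 0.849 times that of vdac1b in the wild type and 4.03 times in dek40. Against GRMZM2G055025 the difference was 1.75 (1.36 to 2.13) and against GRMZM2G059937 it was 1.87 (1.57 to 2.16). The porins GRMZM2G055025 and GRMZM2G059937 differed by 0.12, with an interval of -0.35 to 0.59 that holds 0. The 14 pairs compared in this way were chosen after the values were seen, and their intervals are not adjusted for that number. The sources used here do not say how reads of close copies were assigned, so the split between these channels is uncertain to that extent.

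A further gene with an anion channel symbol lies outside the rule. GRMZM2G150616 has the symbol vdac1a in a RefSeq gene table, while the file describes it as isochorismate synthase 1. Its smallest implied gene length, 829 bases up to the common factor of the totals, was the same as that of vdac2, vdac1b and GRMZM2G059937. It stood at 154 FPKM (wild type) and 369 RPKM (dek40), with a log2 ratio of 0.84 (0.77 to 0.92). Which name is right was not tested. If it is an anion channel, it was the most abundant of the 5 in the wild type and second to vdac2 in dek40. With it counted as a channel, the summed level of the 5 genes went from 347 FPKM to 1350 RPKM, 2.91-fold after scaling. The share of vdac2 in that sum was 20.1% in the wild type and 51.2% in dek40, while the share of vdac1a went from 44.3% to 27.3% and that of vdac1b from 23.7% to 12.7%. Among the 4 members alone the share of vdac2 went from 36.1% to 70.4%.

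**Figure D3:**
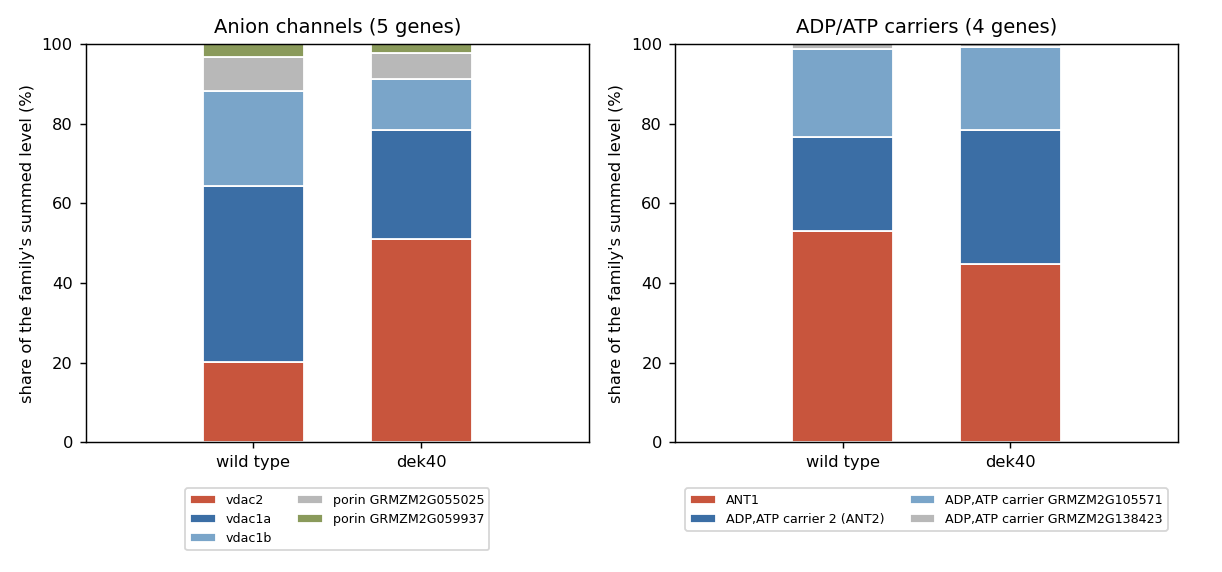
Shares of each gene in its family's summed level (%), in the wild type and the library labelled dek40. Shown are 5 genes with anion channel names or symbols and 4 ADP/ATP carrier genes. Of these, vdac1a (a channel by symbol only) and ANT1 are from outside the rule. The vdac2 segment grows from 20.1% to 51.2%, whereas in the ADP/ATP carriers ANT1 is the largest segment in both libraries.

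The ADP/ATP carriers, the exchangers of the inner membrane that export ATP, did not share the high ratios of the channels. ADP,ATP carrier protein 2 (GRMZM2G135186, ANT2) was the most abundant member in the wild type, at 132 FPKM, and was at 213 RPKM in dek40. Its log2 ratio was 0.27 (0.17 to 0.37). The carrier gene GRMZM2G105571 was at 125 FPKM and 131 RPKM, and its log2 ratio was -0.35 (-0.47 to -0.23) after scaling and 0.07 as deposited, so the sign of its ratio turned with the scaling. The low carrier gene GRMZM2G138423 was at 6.87 FPKM and 5.15 RPKM, on at least 53 and 36 reads, and had the lowest ratio of all members at -0.70 (-1.49 to -0.20). It was below 0 as deposited too, at -0.36.

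Within the ADP/ATP carriers the balance between the abundant copies moved by less than that of the channels. ANT2 stood at 1.06 times the level of GRMZM2G105571 in the wild type and 1.63 times in dek40, a difference of 0.62 between their log2 ratios (0.47 to 0.78). The summed level of the 3 members was 264 FPKM and 350 RPKM, 0.990-fold after scaling. The gene with the symbols ANT1 and MANT1 (GRMZM5G837108), which has no description and so lies outside the rule, was more abundant than any member in the wild type, at 299 FPKM, and was at 283 RPKM in dek40. Its log2 ratio was -0.50 (-0.59 to -0.41). With ANT1 the sum of the 4 genes was 0.840-fold after scaling and 1.12-fold as deposited, so the direction of the family's sum depends on the scaling.

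The mitochondrial phosphate transporter (GRMZM2G152827), which brings phosphate to the matrix for ATP synthesis, was at 83.9 FPKM and 177 RPKM, on at least 1444 and 2763 reads. The log2 ratio was 0.65 (0.56 to 0.75), within 2-fold after scaling and 1.07 as deposited. Without a pseudocount it exceeded the ratio of ANT2 by 0.38 (0.25 to 0.52) and that of GRMZM2G105571 by 1.01 (0.85 to 1.16). The carriers of phosphate and of ADP and ATP, which serve the same ATP synthase, thus had different ratios in these libraries beyond counting error.

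Dicarboxylate carriers move malate, 2-oxoglutarate and related acids. The mitochondrial 2-oxoglutarate/malate carrier gene GRMZM2G436593 was at 20.0 FPKM and 46.5 RPKM, and its log2 ratio was 0.77 (0.60 to 1.00). A more abundant gene with the same kind of name (GRMZM2G042146), outside the rule because its description lacks the word mitochondrial, was at 227 FPKM and 298 RPKM, and its log2 ratio was -0.03 (-0.12 to 0.07). The difference between this pair was 0.82 (0.61 to 1.04). Uncoupling protein 2 (GRMZM2G165629), whose relatives in Arabidopsis exchange amino acids and dicarboxylates, was low, at 3.92 FPKM and 6.19 RPKM. Its ratio was 0.19 with an interval of -0.24 to 0.72 on the fewest reads. That interval holds 0, so no difference from the median gene can be stated.

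Not every gene that the words of the rule took in belongs to the mitochondrion. The plastid general dicarboxylate transporter (GRMZM2G086258, symbol pDCT2), a protein of the plastid envelope, was at 17.6 FPKM and 39.9 RPKM, with a log2 ratio of 0.73 (0.60 to 0.93). The C4-dicarboxylate/malic acid transport protein gene GRMZM2G061469 belongs to a family of which an Arabidopsis member is the anion channel of guard cell plasma membranes. It rested on as few as 1 and 3 reads, and its scaled level stayed below 1. On those fewest reads its interval ran from -2.33 to 7.02. Without these genes the median of the remaining 15 members was 0.54, and the 2 higher genes were unaffected.

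The remaining carriers were at low levels and within 2-fold. The human carrier of thiamine pyrophosphate was first described as a deoxynucleotide carrier. The maize gene described as a mitochondrial deoxynucleotide carrier (GRMZM2G118515) had the highest ratio of the inner membrane carriers among the members. It was at 4.43 FPKM and 11.3 RPKM, and its log2 ratio was 0.80 (0.34 to 1.55) on at least 35 and 81 reads. The calcium-binding carrier F55A11.4 (GRMZM2G180971), named after a nematode gene of a group that in animals exchanges ATP-Mg for phosphate, was at 6.92 FPKM and 14.0 RPKM, and its log2 ratio was 0.54 (0.33 to 0.88). The carrier YEL006W (GRMZM2G136016), named after a yeast carrier of the cofactor NAD, was at 3.13 FPKM and 3.09 RPKM. Its ratio of -0.32 had an interval of -1.26 to 0.38, which holds 0.

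Of the carrier-like genes with no named substrate, GRMZM2G365515 was at 6.02 FPKM and 11.0 RPKM and GRMZM2G043182 at 1.50 FPKM and 3.38 RPKM. Their log2 ratios were 0.39 (-0.34 to 1.26) and 0.50 (0.00 to 1.54). Both rested on as few as 23 reads in the wild type. On these fewest reads the first interval holds 0. The lower bound of the second, 0.002, lies barely above it, so that gene counts among the members with an interval wholly above 0. True reads may be more and the intervals narrower, so the size of their difference is poorly fixed here.

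**Figure D4:**
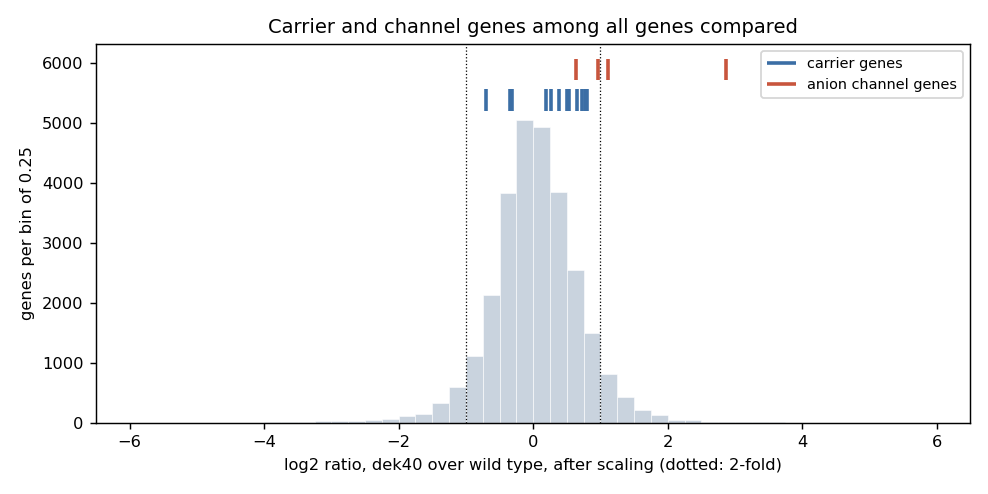
Histogram of the log2 ratios after scaling of the 28178 genes compared (bins of 0.25), with the 12 carrier genes and the 4 anion channel genes marked by ticks above it and dotted lines at 2-fold. The carrier ticks lie between -0.70 and 0.80, inside the bulk of all genes, and the vdac2 tick at 2.87 lies in the upper tail.

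Summed over all 17 genes, the level was 605 FPKM (wild type) and 1644 RPKM (dek40), 2.03-fold after scaling. The share of vdac2 in this sum was 11.5% in the wild type and 42.0% in dek40. Without vdac2 the sum was 1.33-fold after scaling. Over the 11 inner membrane carriers of the mitochondrion it was 1.18-fold, from 394 FPKM to 622 RPKM. The 12 members that are not anion channels had a median log2 ratio of 0.44 (-0.32 to 0.73), with 0 past 2-fold in either direction. Without vdac2 the median of the remaining 15 members was 0.54. Leaving out the top gene can move a median only to a neighbouring value, so this does not test how general the shift is. The summed level did depend on vdac2.

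Enzymes that make or use what the carriers move were counted by the same 2-fold rule. Over all genes, that rule called 6.33% higher and 4.99% lower after scaling, and 14.7% and 2.65% as deposited. These shares are the background for each list below. Of 20 genes for ATP synthase subunits and adenylate kinases, 3 were higher and 0 lower, and the list median was 0.42 (-0.04 to 0.55). The higher ones were an adenylate kinase (GRMZM2G013152, 4.83 FPKM and 22.3 RPKM, log2 ratio 1.60), which interconverts adenine nucleotides, and copies named ATP synthase subunit a (GRMZM2G329636, 1.23) and MI25 (GRMZM5G884912, 1.04). The latter carry names of subunits that plant mitochondrial genomes encode, and without the 3 genes with such names 1 of 17 was higher and the median was 0.25. As deposited, 5 of the 20 genes were higher and 0 lower. The most abundant of the list, the ATP synthase D chain (GRMZM2G157018), was at 930 FPKM and 1293 RPKM, and its log2 ratio was 0.05.

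Of 31 genes compared in the list of the citric acid cycle and pyruvate entry, 6 were higher and 0 lower, and the list median was 0.47 (0.14 to 0.78). An isocitrate dehydrogenase subunit 1 gene (GRMZM2G025366) was at 4.01 FPKM and 41.3 RPKM, and its log2 ratio was 2.67. Both succinyl-CoA ligase chains of the cycle were also higher (GRMZM2G039251, 1.36, and GRMZM2G064695, 1.00). A malate dehydrogenase described as cytoplasmic (GRMZM2G415359, 1.42) and an NADP isocitrate dehydrogenase (GRMZM2G432128, 1.10) were higher too, and neither is an enzyme of the mitochondrial cycle itself. The sixth, 3-isopropylmalate dehydrogenase (GRMZM2G120857, 1.49), is an enzyme of leucine synthesis that the words of the list took in. Without the 3-isopropylmalate dehydrogenases and an ATP-citrate synthase, 5 of 27 were higher and the median was 0.51. As deposited, 14 of the 31 genes were higher and 0 lower, against 14.7% and 2.65% of all genes. The most abundant gene of the list, a malate dehydrogenase (GRMZM2G154595), was at 652 FPKM and 1210 RPKM, and its log2 ratio was 0.47.

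Among 3 alternative oxidase genes compared, the inner membrane enzymes that bypass the cytochrome pathway, GRMZM2G125669 was higher at 4.88 and GRMZM2G102349, the most abundant in the wild type, was at -0.78. The list median was 0.02, and as deposited 1 gene of the list was higher and 0 lower. Transporters of the plastid envelope numbered 12, of which 0 were higher and 1 was lower, and their median was 0.22 (-0.40 to 0.49). As deposited 2 were higher and 1 lower. The lower one was brittle1, at -2.03 after scaling. It was added to the list by identifier, since its description lacks the words of the list. The gene pDCT2 is counted in this list as well as among the members. Whether the members differ from those lists cannot be tested with 1 library per genotype.

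**Figure D5:**
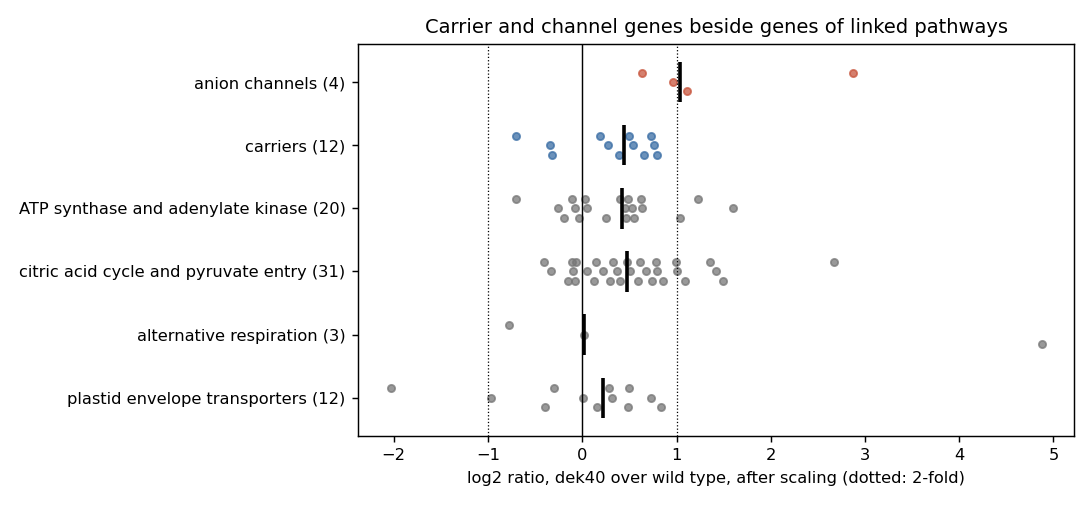
Log2 ratios after scaling of single genes (points) and list medians (black bars) for the 4 anion channels, the 12 other carriers compared and 4 lists of linked pathways, with the number of genes in brackets and dotted lines at 2-fold. The points far to the right are vdac2 (2.87), an isocitrate dehydrogenase subunit (2.67) and an alternative oxidase (4.88), and the point at -2.03 is brittle1.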

How the data were processed

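Endosperm mRNA of 1 library labelled dek40 and 1 labelled wild type was compared, and nothing in the labels describes replicates. Reads were aligned with Bowtie2 2.1.0 to B73 RefGen v3, per the submitters' processing notes. The sources used here name no counter, annotation or filter. The authors deposited 1 RPKM value per gene for dek40 and 1 FPKM value per gene for the wild type, per the file headers. Whether the differently headed columns count the same thing is unknown, and the scaling removes a constant factor between them. Both files list the same 41406 genes, with 0 genes at 0, so genes read in 1 library alone are not analysed here.

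All ratios of the columns were fractions of whole numbers times 1.10203042 within a relative tolerance of 1e-12, which gave the implied totals and the fewest reads per gene. These sum to 71.4% of either total, so intervals are at least as wide as true counts would give. No count test was run. The pseudocount was 1, the minimum level 1 and the threshold 2-fold. The scripts (Python 3.11.15, pandas 2.3.3, scipy 1.17.1) were tested on simulated data. All 17 members matched a RefSeq gene table (Zm-B73-REFERENCE-NAM-5.0) by identifier; its build differs, so no coordinates are given, and no sequences are shown. Named were all members, and from the pathway lists the genes past 2-fold and the most abundant. Members, lists and alternatives were chosen with earlier results of these data known. Genes outside the rule were chosen after their values were seen.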

Additional observations from a re-analysis of the deposited data

How the results depend on the processing

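No paired analysis was possible because each genotype has 1 library, and no replicate could be left out. For the members, the choice of scaling moved the counts and the median most. With values as deposited 8 of 17 members were higher and the median log2 ratio was 0.93. With equal summed values these were 8 of 17 and 0.98. With equal sums without the zeins, added after seeing the data, they were 5 of 16 and 0.84. The count over all genes was not taken for that last setting. Of all genes, 4282 of 29142 were higher and 771 lower as deposited. With equal sums 4763 of 29311 were higher and 718 lower. In the report these were 1784 and 1406 of 28178. As deposited the medians of ATP synthase, the citric acid cycle and plastid transporters were 0.82, 0.89 and 0.63. Of 28178 genes, a pseudocount of 0.1 gave 3139 higher and 2370 lower, and one of 5 gave 514 and 558. A minimum level of 5 gave 1152 higher genes of 17305. Under these pseudocounts and minimum levels 2 or 3 members were higher, under every alternative 0 were lower, and the log2 ratio of vdac2 ranged from 2.80 to 3.35. Leaving the 22 zeins out of the median over 25115 genes left the scaling factor at 0.747. Taking members by description alone gave the same genes, since the description of vdac2 matches too. These alternatives changed no count and so do not test the counts. The widest interval was that of GRMZM2G061469, on as few as 1 and 3 reads, and its true reads may be more.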

Other observations

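Genes that resemble the members but lie outside the rule were looked up by their descriptions or symbols after their values were seen, so they are described only. Over 13 such genes, vdac1a, ANT1 and the abundant 2-oxoglutarate/malate carrier among them, 0 were higher and 0 lower. Over all genes these shares were 6.33% and 4.99%, and the median log2 ratio of the 13 was 0.04 after scaling. As deposited 3 of the 13 were higher and 0 lower, against 14.7% and 2.65% of all genes, and their median was 0.45. The members' median of 0.59 thus holds for the genes that the description rule took in, and whether these relatives differ from them cannot be tested with 1 library per genotype.

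Subunits of the mitochondrial pyruvate carrier are listed under the name Brain protein 44. The most abundant, GRMZM2G062289, was at 122 FPKM and 167 RPKM, and its log2 ratio was 0.04 (-0.35 to 0.43). The others looked up under that name were GRMZM2G043749, at -0.0008 (-0.39 to 0.39), and GRMZM2G139805, at -0.34 (-1.07 to 0.28). The porin of the plastid outer membrane (GRMZM2G155021), a relative of the anion channels, was at 81.4 FPKM and 92.7 RPKM, and its log2 ratio was -0.23 (-0.36 to -0.11), which was 0.19 as deposited. A gene described as Grave disease carrier protein (GRMZM2G067877), a name from a human carrier linked to coenzyme A, was at 98.2 FPKM and 185 RPKM, and its log2 ratio was 0.49. Another of that name (GRMZM2G145019) had the highest ratio of these relatives, 0.93 (0.58 to 1.53), at 5.36 FPKM and 14.8 RPKM.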
